A study of Mus musculus with 6 samples.

Results

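The 9 genes described here encode proteins with which macrophages take up haemoglobin and heme, break heme down, and store, move or export the iron. They are Cd163, Slc48a1, Hmox1, Blvrb, Ftl1, Fth1, Slc40a1, Slc11a1 and Trf. They were found by symbol in a table of 14992 genes, in which each of the 9 has 1 row, and all 9 were among the 12806 genes with enough reads to test.

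Resident macrophages of the marrow, spleen and liver engulf worn red cells and the nuclei that maturing red cells expel. CD163 is the scavenger receptor for haemoglobin bound to haptoglobin. Heme freed in the phagolysosome is carried to the cytosol by SLC48A1, opened by heme oxygenase (Hmox1) into biliverdin, iron and carbon monoxide, and biliverdin is then reduced by biliverdin reductases such as BLVRB. The iron is held in ferritin, a shell of heavy (Fth1) and light (Ftl1) chains, or leaves the cell through ferroportin (Slc40a1), the only known cellular iron exporter, to be carried in plasma by transferrin (Trf). SLC11A1, also called NRAMP1, moves divalent metals across the phagosome membrane. Several of these genes also work outside macrophages: erythroid precursors use ferroportin, BLVRB, SLC48A1 and ferritin.

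The libraries hold RNA from whole bone marrow of irradiated C57BL/6 mice that had received marrow of Dnmt3a knockout donors. The tested recipients were given a PI3K alpha/beta inhibitor at 75 mg/kg for 21 days (3 libraries, numbered 1, 3 and 5), and the others were given vehicle (3 libraries, numbered 1, 2 and 3). Both groups therefore carry the Dnmt3a knockout and the transplant, the labels call the transplanted cells leukaemic, and no marrow with intact Dnmt3a is among the libraries. The labels give neither the age of the mice, the way the knockout was made nor how many host cells remained, and they do not say that each library is 1 mouse, so the p-values rest on library-to-library spread alone, which may be technical.

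Total counts were 28198638 to 35299105 in the inhibitor libraries and 33762431 to 59384880 in the vehicle libraries. Vehicle 1 was unlike vehicles 2 and 3. The summed level of 20 macrophage marker genes was 1190 to 1469 CPM (the count scaled to a common library size) in the inhibitor libraries, against 9710 CPM in vehicle 1 and 2959 and 3465 CPM in vehicles 2 and 3. For 19 erythroid markers the sums were 2006 to 4031 CPM in the inhibitor libraries, 8063 CPM in vehicle 1 and 2604 and 2865 CPM in vehicles 2 and 3. Neutrophil markers summed to 107327 to 130954 CPM with the inhibitor and 42972 to 69719 CPM with vehicle.

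None of the 9 genes passed the edgeR quasi-likelihood test over all 6 libraries (adjusted p under 0.05 over all tested genes), a test that called 1.83% of all 12806 genes in either direction. At an unadjusted p under 0.05, 5 of the 9 had lower values with the inhibitor, against 11.9% of all tested genes. In those 5 genes, Cd163, Hmox1, Trf, Slc11a1 and Ftl1, every inhibitor library lay below every vehicle library, which was true of 16.2% of all tested genes. No member had every inhibitor library above every vehicle library, against 14.4% of all tested genes. The median log2 fold change, inhibitor over vehicle, was -0.59 over the 9 genes and 0.000931 over all tested genes. Without vehicle 1 the edgeR test called 4 of the 9 lower (Cd163, Hmox1, Slc11a1 and Trf), against 4.89% of all genes, and the median of the 9 genes was -0.34.

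**Figure D1:**
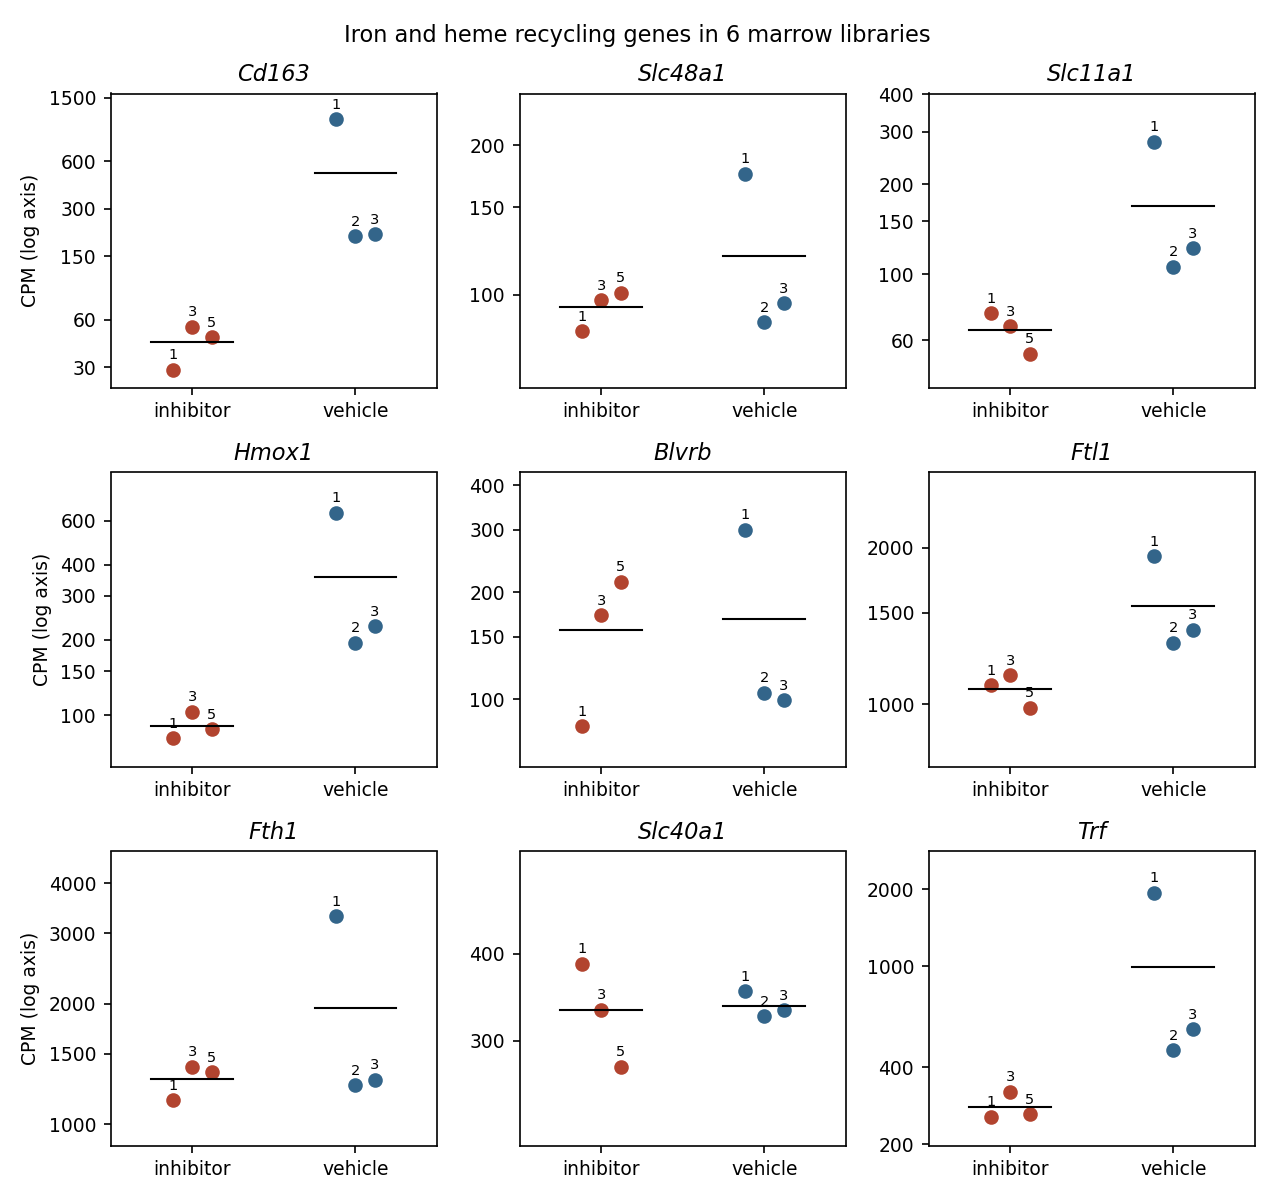
Level of each of the 9 genes in CPM (log axis, scaled separately for each gene) in the 3 inhibitor and 3 vehicle libraries. Points are libraries with their replicate number, and black lines are group means. Cd163, Hmox1, Slc11a1, Trf and Ftl1 have no overlap between groups, vehicle 1 is the highest library in every panel but that of Slc40a1, and the vehicles of Slc40a1 lie within the range of the inhibitor libraries.

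Cd163, the haemoglobin scavenger receptor, had the largest difference of the 9 genes. It stood at 29.0, 54.1 and 46.3 CPM in inhibitors 1, 3 and 5, against 1103, 201 and 207 CPM in vehicles 1, 2 and 3. Every inhibitor library was therefore far below even the lower vehicles, while vehicle 1 lay 5.41 times above the mean of vehicles 2 and 3. Inhibitor over vehicle, this came to -3.55 ± 0.73 in log2 units (edgeR estimate and SE, n = 3 per group, adjusted p = 0.0593), with a 95% confidence interval of -5.27 to -1.82. Without vehicle 1 it was -2.24 ± 0.23 (edgeR adjusted p = 0.0036), so the gene passed in the fit that left out the library with its highest value. In bulk marrow, fewer cells of a type and less RNA per cell cannot be told apart, for Cd163 or for any gene below.

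The start of Cd163 (chr6:124304656-124330527, plus strand, GRCm38) is shown because this gene and Slc11a1 are the members with the smallest p values among the 5 whose promoter sequences were at hand. The run is the 250 bases before the start annotated in RefSeq (chr6:124304401-124304650, plus strand, GRCm38.p6). Gene coordinates given here are from GENCODE M21, whose starts are not always those of RefSeq. Both promoters were searched on both strands for the antioxidant response core TGACNNNGC, the sequence at which NRF2 and BACH1 act on heme oxygenase and ferritin genes, and for the PU box GAGGAA, a core bound by PU.1 and SPI-C. No match of one motif shared a base with a match of the other. Capitals mark a match.
Cd163: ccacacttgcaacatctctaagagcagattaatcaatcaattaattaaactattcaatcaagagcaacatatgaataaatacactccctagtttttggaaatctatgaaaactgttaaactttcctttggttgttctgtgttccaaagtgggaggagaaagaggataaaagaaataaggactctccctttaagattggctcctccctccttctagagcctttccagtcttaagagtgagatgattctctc
Slc11a1: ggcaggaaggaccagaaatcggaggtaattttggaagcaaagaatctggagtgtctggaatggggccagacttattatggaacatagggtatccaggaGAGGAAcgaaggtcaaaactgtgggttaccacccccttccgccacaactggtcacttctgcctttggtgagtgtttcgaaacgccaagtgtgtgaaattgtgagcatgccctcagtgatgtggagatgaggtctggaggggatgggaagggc

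The Slc11a1 run lies at chr1:74374953-74375202 on the plus strand and ends just past the GENCODE M21 start of the gene. It holds 1 PU box, whose first base is 152 bases before the RefSeq start. Over the 7 promoters of 5 members (Cd163, Slc11a1, Ftl1, Fth1 and Blvrb), 1 held a PU box and 0 held the antioxidant response core, against 23.3% and 10.2% of all 32851 promoters in the same table. A match is a description of letters and not a bound site, and its absence from 250 bases says nothing of the factor. Slc40a1, Hmox1, Slc48a1 and Trf have no entry there.

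Slc48a1, the transporter that brings heme out of the phagolysosome, was at 84.4, 97.4 and 101 CPM in inhibitors 1, 3 and 5, against 176, 87.9 and 96.1 CPM in vehicles 1, 2 and 3. The groups overlap, since vehicles 2 and 3 lie within the inhibitor range. The log2 fold change was -0.35 ± 0.26 (SE; edgeR adjusted p = 0.48), and 0.03 ± 0.12 without vehicle 1, the library that carries the difference. Exons of Slc48a1 overlap those of Hdac7 on the opposite strand, and the library chemistry does not mark strand, so reads of the 2 genes cannot be told apart where they overlap. Hdac7 itself was at 32.6 to 38.6 CPM in inhibitor and 29.8 to 34.8 CPM in vehicle libraries. Exons of Trf also overlap those of the protein-coding gene Gm20425 on the same strand. Exons of Ftl1 overlap those of Gm10252 on the opposite strand and Gm22133 on the same strand. None of these has a row in the table, and the same limit holds for Trf and Ftl1.

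Hmox1, the enzyme that opens the heme ring (chr8:75093621-75100589, plus strand), was at 80.9, 103 and 88.0 CPM in inhibitors 1, 3 and 5, against 644, 195 and 227 CPM in vehicles 1, 2 and 3. The inhibitor libraries lie close together and below every vehicle. The log2 fold change was -1.97 ± 0.45 (SE; edgeR adjusted p = 0.0691), and -1.22 ± 0.14 without vehicle 1 (edgeR adjusted p = 0.0051). Blvrb, the next enzyme of the pathway, did not follow this order. It was at 84.1, 172 and 214 CPM in inhibitors 1, 3 and 5, against 299, 104 and 99.5 CPM in vehicles 1, 2 and 3. Its highest and lowest libraries are vehicle 1 and inhibitor 1, and its log2 fold change was -0.10 ± 0.50 (SE; edgeR adjusted p = 0.927), with a 95% confidence interval of -1.28 to 1.08.

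Both ferritin chains were abundant, and together they took 0.203% to 0.241% of all counts in the inhibitor libraries, against 0.544% in vehicle 1 and 0.269% and 0.284% in vehicles 2 and 3. Ftl1, the light chain, was at 1086, 1137 and 985 CPM in inhibitors 1, 3 and 5, against 1926, 1314 and 1390.2 CPM in vehicles 1, 2 and 3. The groups do not overlap, but the gap between the nearest libraries is small. Its log2 fold change was -0.53 ± 0.19 (SE; edgeR adjusted p = 0.165), and -0.34 ± 0.14 without vehicle 1. Fth1, the heavy chain with the ferroxidase activity, was at 1149.9, 1391 and 1351 CPM in inhibitors 1, 3 and 5, against 3308, 1251 and 1292 CPM in vehicles 1, 2 and 3. Only vehicle 1 lies above the inhibitor libraries, and its log2 fold change over all 6 libraries was -0.59 ± 0.38 (SE; edgeR adjusted p = 0.407), against 0.03 ± 0.15 without vehicle 1.

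Per base of gene length, the ratio of Fth1 to Ftl1 was 0.68, 0.785 and 0.881 in inhibitors 1, 3 and 5, against 1.10 in vehicle 1 and 0.611 and 0.596 in vehicles 2 and 3. The ratio was higher in each inhibitor library than in vehicles 2 and 3 and highest in vehicle 1, so the groups overlap (exact two-sided permutation p = 0.8, n = 3 per group, where 0.1 is the smallest p that 3 against 3 allows). Processed ferritin pseudogenes, such as Ftl2-ps and Fth-ps2, are annotated in GENCODE M21 and have no row in the table, and how reads that match several copies were counted is not stated in the labels, so both counts are uncertain.

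Ferritin output is set mainly at translation. Iron regulatory proteins bind a hairpin in the 5' UTR of both ferritin messages, the iron-responsive element, when iron is scarce and block the ribosome, so message counts do not report ferritin protein. The elements are shown because they are the letters through which iron acts on these abundant messages. They were found in GENCODE M21 transcripts as a C, 5 bases, the loop CAGTGN and 5 bases that pair with the first 5. The loop is in capitals.
Fth1: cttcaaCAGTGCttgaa
Ftl1: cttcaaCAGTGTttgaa

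The Fth1 element lies at chr19:9982738-9982754 on the plus strand, in exon 1 of transcript Fth1-201, and the Ftl1 element at chr7:45459785-45459801 on the minus strand, in exon 1 of Ftl1-201 (GRCm38). They differ by C12T, with the Fth1 base first and positions counted from the 5' end of the printed run. The pattern was present in the 5' UTR of 31 of 20916 genes with an annotated 5' UTR (0.148%).

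Slc40a1, ferroportin (chr1:45908068-45926523, minus strand), differed least of the 9 genes. It was at 387, 332 and 275 CPM in inhibitors 1, 3 and 5, against 353, 325 and 332 CPM in vehicles 1, 2 and 3. The vehicles lie within the inhibitor range, and vehicle 1 is hardly above vehicles 2 and 3 although it was the highest library for the other 8 genes. The log2 fold change was -0.02 ± 0.15 (SE; edgeR adjusted p = 0.946), with a 95% confidence interval of -0.38 to 0.34. The ratio of Cd163 to Slc40a1 per base of gene length was 0.0563, 0.122 and 0.127 in inhibitors 1, 3 and 5, against 2.35, 0.466 and 0.469 in vehicles 1, 2 and 3, with no overlap (exact two-sided permutation p = 0.1, the smallest possible). For Hmox1 over Slc40a1 it was 0.448, 0.665 and 0.685 in inhibitors 1, 3 and 5, against 3.91, 1.28 and 1.47 in vehicles 1, 2 and 3, also without overlap (exact two-sided permutation p = 0.1). Because Slc40a1 varied little, both ratios restate the differences in Cd163 and Hmox1 and are no further result.

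Slc11a1, the phagosomal metal transporter (chr1:74375195-74386062, plus strand), was at 73.9, 67.0 and 54.1 CPM in inhibitors 1, 3 and 5, against 278, 106 and 122 CPM in vehicles 1, 2 and 3. All inhibitor libraries lie below all vehicles. The log2 fold change was -1.37 ± 0.37 (SE; edgeR adjusted p = 0.0916), and -0.81 ± 0.15 without vehicle 1 (edgeR adjusted p = 0.021). Trf, the plasma iron carrier (chr9:103204001-103230444, minus strand), was at 257, 322 and 263 CPM in inhibitors 1, 3 and 5, against 1939.8, 468 and 564 CPM in vehicles 1, 2 and 3. The inhibitor libraries again lie below every vehicle, with vehicle 1 at 3.76 times the mean of the other vehicles. Its log2 fold change was -1.82 ± 0.53 (SE; edgeR adjusted p = 0.108), and -0.88 ± 0.16 without vehicle 1 (edgeR adjusted p = 0.0189). Transferrin in plasma comes mostly from the liver. Of 8 listed hepatocyte markers only 2, Apoa2 and Ahsg, are in the table, both with too few reads to test. Together they stayed at 0.195 to 0.595 CPM in the inhibitor libraries and 0.0636 to 0.2 CPM in the vehicle libraries. The source of the Trf reads was not tested.

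**Figure D2:**
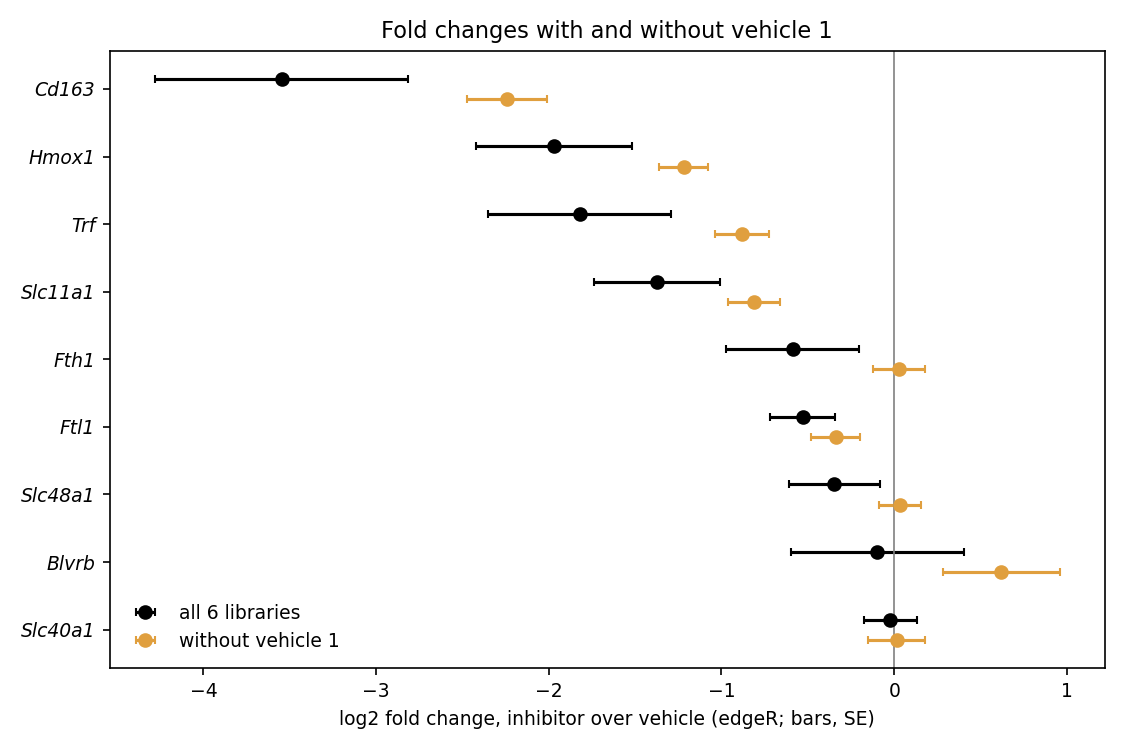
Log2 fold change of each gene, inhibitor over vehicle, from edgeR over all 6 libraries (black) and without vehicle 1 (orange). Bars are standard errors. Cd163, Hmox1, Trf, Slc11a1 and Ftl1 stay below 0 in both fits, Fth1, Slc48a1 and Blvrb cross to the other side of 0 without vehicle 1, and Slc40a1 lies close to 0 in both.

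Levels between genes were compared per kilobase of gene length, as RPKM. In the inhibitor libraries the order of means was Ftl1 at 1103, Fth1 at 859, Blvrb at 157, Trf at 120.2, Slc40a1 at 98.1, Hmox1 at 57.5, Slc48a1 at 37.3, Slc11a1 at 28.2 and Cd163 at 9.60. In the vehicle libraries it was Ftl1 at 1591, Fth1 at 1291, Trf at 425, Hmox1 at 225, Blvrb at 168, Cd163 at 112, Slc40a1 at 99.6, Slc11a1 at 73.1 and Slc48a1 at 47.4. In the inhibitor libraries the ranges of Blvrb and Trf overlap, as do those of Trf and Slc40a1, and the other neighbours in that order do not. In the vehicle libraries every pair of neighbours overlaps. Within the vehicle group the SD of the RPKM was 778 for Fth1, 116 for Cd163, 353 for Trf, 159 for Hmox1 and 114 for Blvrb. The order there is therefore not settled by 3 libraries.

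The 9 genes fell into different patterns across the libraries. Likeness was measured as the root-mean-square difference of log2(CPM + 1) values after each gene's mean over the 6 libraries was taken off. Hmox1 and Trf were the closest pair, at 0.157, followed by Slc48a1 and Fth1 at 0.174. Cd163 and Slc40a1 were the farthest apart, at 1.75. Against the mean profiles of 8 cell type lists, Cd163 and Hmox1 were nearest to the macrophage list (0.525 and 0.332), and Blvrb, Fth1 and Slc48a1 to the erythroid list (0.182, 0.275 and 0.305). Slc11a1 and Ftl1 were nearest to the monocyte list (0.36 and 0.243), Trf to stroma and endothelium (0.431, with macrophages next at 0.479) and Slc40a1 to dendritic cells (0.124). The Slc40a1 and dendritic cell profiles both vary little, so a small difference there says little. For Slc11a1 and Fth1 the next list, stroma and endothelium, was almost as close (0.377 and 0.314). So were T and NK cells for Ftl1 (0.259) and dendritic cells for Slc48a1 (0.338). The nearest list therefore hardly sets these genes apart. Trf was closer to the macrophage list than Cd163 was. These differences describe 6 libraries and name no source of the reads.

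**Figure D3:**
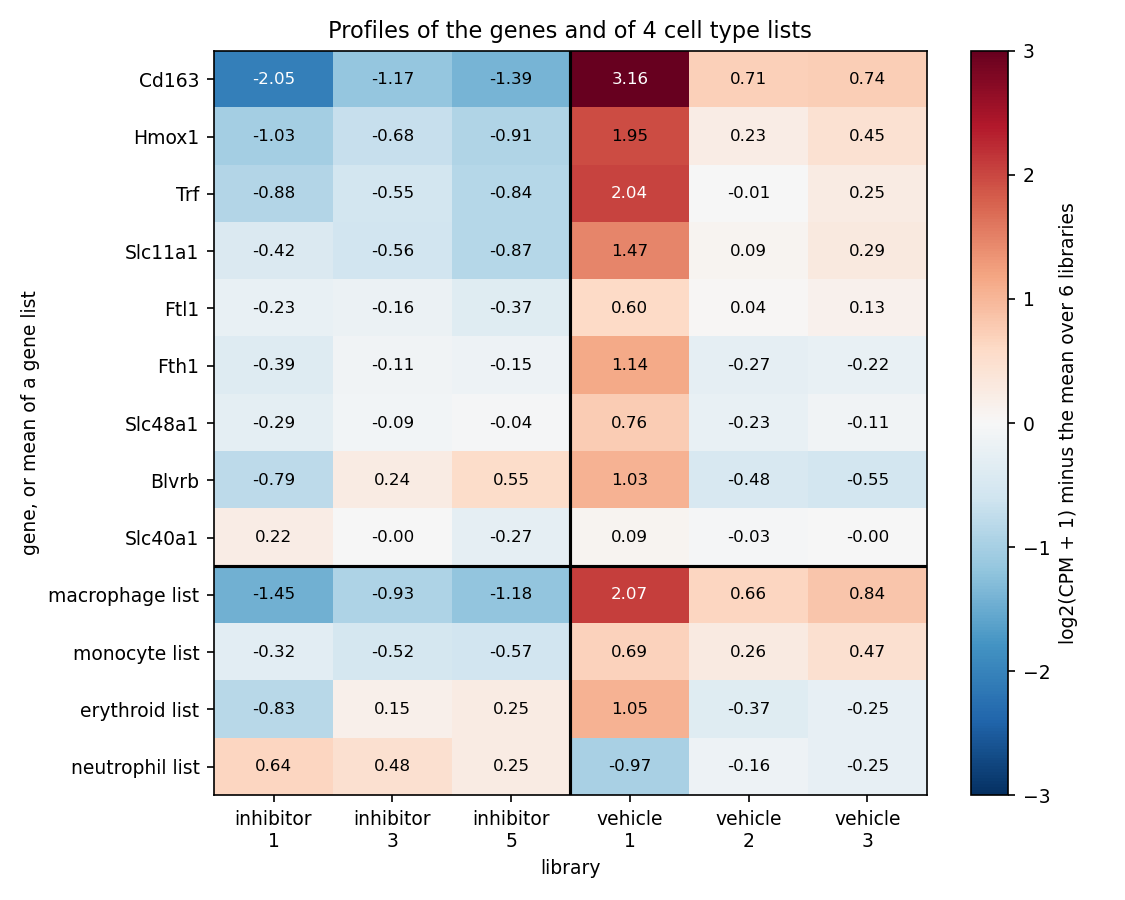
Log2(CPM + 1) of each gene minus its mean over the 6 libraries, with the same quantity for the mean of 4 cell type lists below the line. The 3 columns on the left are inhibitor libraries and the 3 on the right vehicle libraries. Cd163 and Hmox1 run with the macrophage list, which is low in all inhibitor libraries and highest in vehicle 1, and Blvrb runs with the erythroid list, which is lowest in inhibitor 1.

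Single genes were also ranked by likeness to each of the 9. Likeness was taken over the same 6 libraries, so neighbours have fold changes near the member's by selection. Their values are therefore no further result. The nearest to Blvrb were Prdx2, Hemgn and Mgst3 (0.046 to 0.0558), of which Hemgn is a nuclear protein of erythroid precursors and a member of the erythroid list, and Prdx2 the abundant peroxiredoxin of red cells. For Cd163 they were Tgm2, tissue transglutaminase, Sdc3, a syndecan, and Fabp7, a fatty acid binding protein (0.202 to 0.262). Sdc3 passed the edgeR test, with a log2 fold change of -3.52 (edgeR adjusted p = 0.0434), and Tgm2 and Fabp7 did not. For Hmox1 they were Smagp, Cxcl16 and Sbf2 (0.0556 to 0.0832), for Slc11a1 Pmaip1, Plod1 and Arhgef10 (0.0454 to 0.111), and for Trf Fcgrt, the neonatal Fc receptor, Gpr55 and Dusp8 (0.102 to 0.13). The neighbours of Slc40a1, Necap1, Zfp281 and Slc37a3 (0.0297 to 0.0409), had log2 fold changes of -0.06 to -0.03. Those of Ftl1 were Cds1, Ppt2 and Dpp7, those of Fth1 Cpq, Hspb6 and Ranbp10, and those of Slc48a1 included Manbal and Eno3.

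The macrophage list gives the scale for these differences. All 20 of its genes had negative log2 fold changes (median -2.72), 9 passed the edgeR test as lower, and without vehicle 1 the median was -1.82 with 17 lower. Spic, the transcription factor of iron-recycling macrophages, fell to 2.63, 2.57 and 2.66 CPM in inhibitors 1, 3 and 5, against 8.49, 15.9 and 12.2 CPM in vehicles 1, 2 and 3, which is -2.22 ± 0.26 as a log2 fold change (SE; edgeR adjusted p = 0.024). Unlike Cd163 and Hmox1, Spic was lowest in vehicle 1 among the vehicles. Among the others that fell, the log2 fold change was -2.97 ± 0.38 for Mertk, a receptor for apoptotic cells, -1.31 ± 0.12 for the transcription factor gene Maf, -2.08 ± 0.23 for Nr1h3, which encodes the sterol receptor LXR alpha, and -3.53 ± 0.41 for Clec4f, a lectin of Kupffer cells. Monocyte genes had a median of -1.10 with 4 of 15 lower (Fcgr1, Cx3cr1, Clec4a1 and Treml4), and -0.77 with 10 lower without vehicle 1. For the erythroid list the median was -0.38, none of its 19 tested genes passed in edgeR, and the median without vehicle 1 was 0.27, again with 0 passing. For stroma and endothelium, the list nearest to Trf in profile, the median was -1.24 with 0 of 14 genes passing, and -0.44 with 3 lower without vehicle 1. They summed to 251 to 436 CPM in the inhibitor libraries, against 930 CPM in vehicle 1 and 357 and 365 CPM in vehicles 2 and 3. The macrophage and monocyte calls, like every edgeR call over the 6 libraries named here, are lost when inhibitor 1, inhibitor 3, inhibitor 5 or vehicle 3 is left out, since edgeR then called 0 genes in the whole table. How far the macrophage or erythroid content of a library sets the level of any of the 9 genes was not tested.

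Set against the mean log2(CPM + 1) of the macrophage list in the same library, Cd163 was the member that came out lower with the inhibitor. It stood 0.52, 0.87 and 0.90 above the list mean in inhibitors 1, 3 and 5, against 2.20, 1.16 and 1.02 in vehicles 1, 2 and 3, a difference of -0.70 (exact two-sided permutation p = 0.1, the smallest possible), and -0.33 without vehicle 1. The other 8 genes were higher relative to the list in every inhibitor library than in every vehicle library, by 0.63 for Hmox1 and 0.86 for Trf at the low end and 2.34 for Slc40a1 and 2.37 for Blvrb at the high end. That was also true of 98.9% of the 12777 tested genes outside both lists, so it is no result about these 8 genes. Nor is a fall beyond the list mean particular to Cd163. Some genes of the list itself had edgeR log2 fold changes further below 0 than Cd163, down to -5.96. The list was chosen with earlier results of these data known, so the permutation p for Cd163 adds no support.

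Among 21 other tested genes of iron transport and regulation, 0 were higher and 1 lower in the edgeR test, with a median log2 fold change of -0.16. The gene that fell was Slc39a14, a zinc and iron importer also called ZIP14. It was at 5.63, 3.83 and 4.50 CPM in inhibitors 1, 3 and 5, against 18.2, 12.01 and 13.1 CPM in vehicles 1, 2 and 3, with no overlap and no vehicle far from the others. Its log2 fold change was -1.63 ± 0.24 (SE; edgeR adjusted p = 0.0342), and -1.43 ± 0.19 without vehicle 1. Cp, ceruloplasmin, the ferroxidase that works with ferroportin, had a value of -2.22 ± 0.42 (edgeR adjusted p = 0.0506), and -1.55 ± 0.13 without vehicle 1 (edgeR adjusted p = 0.00165). Hfe, the haemochromatosis protein, had a value of -1.24 ± 0.30 (edgeR adjusted p = 0.0767), and -0.79 ± 0.12 without vehicle 1 (edgeR adjusted p = 0.0119). Fbxl5, which targets iron regulatory protein for degradation when iron is plentiful, had a value of 0.72 ± 0.19 (edgeR adjusted p = 0.0888), with 517, 381 and 337 CPM in inhibitors 1, 3 and 5, against 223, 275 and 253 CPM in vehicles 1, 2 and 3.

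Of 14 other tested genes of heme and haemoglobin handling, 0 were higher and 1 lower, with a median of -0.36. The gene that fell was Lrp1, the receptor for heme bound to hemopexin. It was at 150.3, 136 and 125 CPM in inhibitors 1, 3 and 5, against 784, 296 and 504 CPM in vehicles 1, 2 and 3, which is -1.94 ± 0.33 as a log2 fold change (SE; edgeR adjusted p = 0.0428), and -1.54 ± 0.22 without vehicle 1. The scavenger and mannose receptor genes Mrc1, Stab1 and Stab2 had values of -1.87 ± 0.53, -1.81 ± 0.69 and -1.37 ± 0.49 without passing. Stab2 is also a member of the stroma and endothelium list. Without vehicle 1 Mrc1 passed as lower at -0.98 ± 0.21 (edgeR adjusted p = 0.0304), while Stab1 at -0.68 ± 0.38 and Stab2 at -0.93 ± 0.42 did not pass. Without vehicle 1, 3 of the 21 iron genes and 2 of the 14 heme genes passed as lower, and the medians were 0.06 and -0.10.

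Of 16 genes of the NRF2 and BACH1 axis, the oxidant and heme sensors that control Hmox1 and the ferritin genes, 0 passed in either direction, with a median of 0.04. Srxn1, sulfiredoxin, had a value of -1.45 ± 0.31 (edgeR adjusted p = 0.0615) and Slc7a11, the cystine importer, one of 0.93 ± 0.28 (edgeR adjusted p = 0.111), so the 2 with the largest values lay on opposite sides of 0. Without vehicle 1 both passed, Srxn1 as lower at -1.09 ± 0.20 (edgeR adjusted p = 0.0216) and Slc7a11 as higher at 1.25 ± 0.20 (edgeR adjusted p = 0.0146), and the list median was 0.09. Txnrd1, thioredoxin reductase, was at -0.35 ± 0.11 and Prdx1 at -0.33 ± 0.16. Of 9 heme synthesis genes 0 passed, with a median of -0.24 that was 0.27 without vehicle 1. Alas1, the first enzyme of heme synthesis outside the red lineage, had a value of 0.48 ± 0.15, and Alas2, its erythroid counterpart, one of -1.15 ± 0.60. Cpox and Fech, later enzymes of the pathway, had values of -0.67 ± 0.46 and -0.73 ± 0.51. Without vehicle 1 these values were -0.02 ± 0.19 for Alas2, -0.04 ± 0.30 for Cpox and 0.13 ± 0.23 for Fech, and 0.43 ± 0.16 for Alas1.

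**Figure D4:**
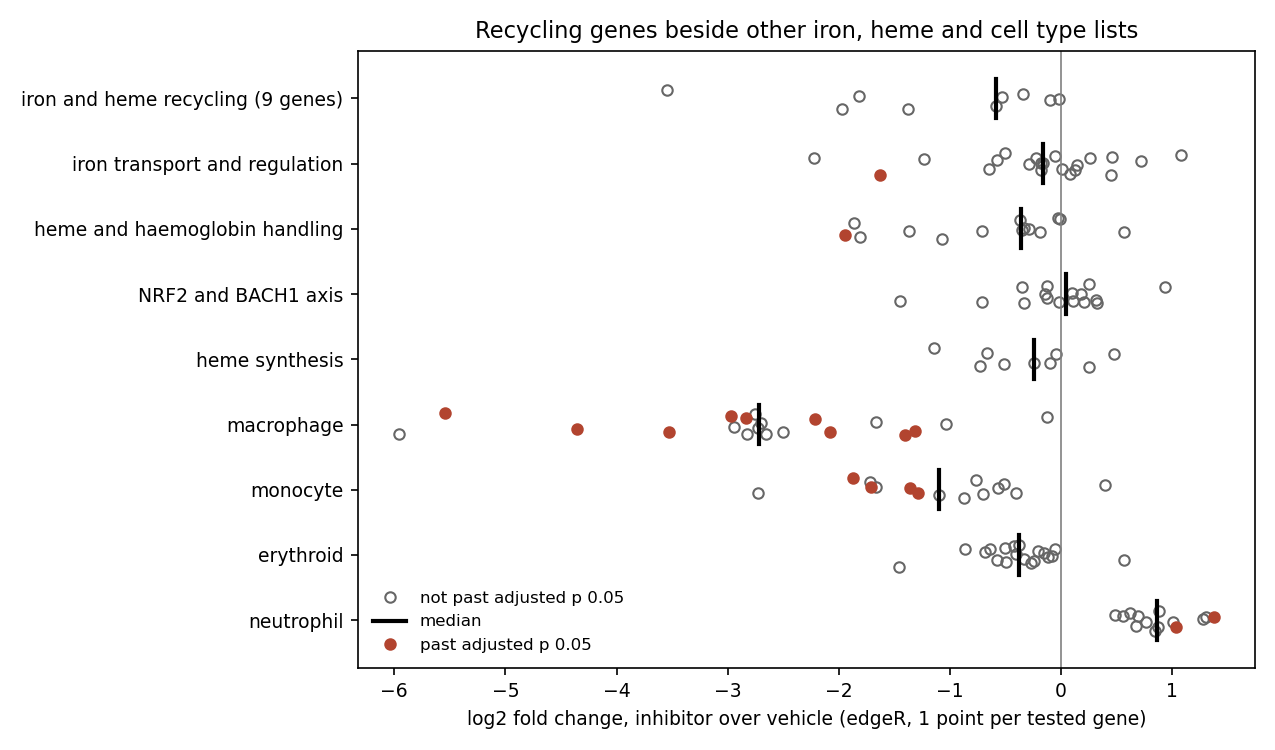
Log2 fold change, inhibitor over vehicle, of every tested gene in 9 lists (1 point per gene, with small vertical scatter for legibility). Filled points passed the edgeR test at an adjusted p under 0.05, open points did not, and black bars are list medians. The 9 recycling genes spread from -3.55 (Cd163) to -0.02 (Slc40a1), with a median of -0.59, beside list medians of -2.72 for macrophage and -0.38 for erythroid genes.

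The call on the 9 genes depended on the test. The DESeq2 Wald test called Cd163, Hmox1, Slc11a1 and Trf lower (DESeq2 adjusted p = 0.00157, 0.00017, 0.00369 and 0.0033), while it called 7.23% of all tested genes lower. Limma voom with sample quality weights, which gave vehicle 1 a weight of 0.161, called the same 4 lower, against 11.6% of all genes. The authors' deposited table has the same 4 genes lower at its own adjusted p under 0.05, against 6.57% of its 13809 genes with an adjusted p. The authors' deposited table gives log2 fold changes of -3.53 for Cd163, -1.95 for Hmox1, -1.80 for Trf, -1.36 for Slc11a1 and -0.02 for Slc40a1. All these tests use the same 6 libraries and are no independent support for each other.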

How the data were processed

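Whole bone marrow RNA was measured by bulk RNA-seq with a low-input SMART-Seq v4 and Nextera XT chemistry, per the labels' protocols. The authors' deposited table holds raw counts per gene, with reads aligned by STAR to mm10 and counted by featureCounts, per the submitters' processing notes, which give no versions or strand setting. It also holds the authors' deposited ratio (fold change), log2 fold change, p-value and adjusted p-value, with no test named in the labels.

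Genes were filtered with filterByExpr, scaled by TMM and tested with edgeR 4.0.16 (quasi-likelihood test, group alone, Benjamini-Hochberg adjustment over all 12806 tested genes) in R 4.3.3. CPM were computed from the counts on TMM-scaled library sizes, and RPKM with the deposited gene lengths. Alternatives used DESeq2 1.42.0, limma 3.58.1 (voom), other scalings and filters, the replicate number as a block, and fits without each library. The 9 genes and the gene lists were chosen with earlier results of these data known. Besides the 9, the text takes from each list the genes past the threshold (at most 6, by p) and, where fewer than 4 pass, those with the smallest p up to 4, and names the 3 genes of at least 5 CPM nearest in profile to each member. Pseudogenes, overlapping genes and hepatocyte markers were named outside this rule, and 2 genes the rule selects are not reported here. Sequences are from RefSeq (GRCm38.p6) and GENCODE M21. Fold changes are inhibitor over vehicle.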

Additional observations from a re-analysis of the deposited data

How the results depend on the processing

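Cd163, Hmox1, Slc11a1, Trf and Ftl1 had negative log2 fold changes under all 21 alternatives, and 0 members were called higher under any. Over all genes edgeR called 81 higher and 153 lower, DESeq2 628 and 926, voom 30 and 55, voom with quality weights 1374 and 1483, edgeR at an adjusted p under 0.10 422 and 634, and edgeR with the replicate block 0 and 7. Leaving out 1 library gave 0 to 401 higher and 0 to 633 lower with edgeR, and 258 to 911 higher and 485 to 981 lower with DESeq2, an alternative chosen after seeing the data (306 and 650 without inhibitor 1, 258 and 485 without inhibitor 3, 391 and 615 without inhibitor 5, 489 and 912 without vehicle 2, 369 and 703 without vehicle 3). edgeR called 0 genes without vehicle 3, inhibitor 1, inhibitor 3 or inhibitor 5, where 2398, 2174, 1832 and 2223 genes had an unadjusted p under 0.05. Members called lower numbered 0 with edgeR (1.19%), 4 with DESeq2 (7.23%) and 4 with quality weights (11.6%). They numbered 3 at an adjusted p under 0.10 (4.95%) and 0 with the block (0.0547%). When 1 library was left out they numbered 0 to 4 with edgeR (0% to 4.89%) and 3 to 5 with DESeq2 (3.72% to 7.58%). Each percentage is the share of all tested genes called lower in the same fit. The sign of the log2 fold change turned with quality weights for Slc48a1 (0.0217), Fth1 (0.0237) and Blvrb (0.615), and with the replicate block for Slc40a1 (0.0674). With 1 library left out, edgeR gave -0.141 to 0.0997 for Slc40a1 (positive without inhibitor 5 or vehicle 1), -0.525 to 0.0342 for Slc48a1, -0.825 to 0.0286 for Fth1 (both positive without vehicle 1) and -0.376 to 0.620 for Blvrb (positive without inhibitor 1 or vehicle 1). DESeq2 turned in the same fits, to 0.0949 (inhibitor 5) and 0.00363 (vehicle 1) for Slc40a1, 0.0250 for Slc48a1, 0.0194 for Fth1, and 0.215 (inhibitor 1) and 0.612 (vehicle 1) for Blvrb. The cause was not tested. Shared replicate numbers do not pair mice in the labels, and deviations of same-numbered libraries correlated at -0.514 (number 1) and -0.103 (number 3). With 3 libraries a group, small differences in Slc40a1, Slc48a1, Fth1 and Blvrb were not detectable.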
